A study of Mus musculus with 96 samples.

Results

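The acute phase protein genes studied here are the serum amyloid A genes Saa1, Saa2, Saa3 and Saa4, the orosomucoid genes Orm1, Orm2 and Orm3, and the genes of haptoglobin (Hp), lipocalin 2 (Lcn2) and serum amyloid P component (Apcs). They were chosen by gene symbol, and all 10 have values among the 20155 genes with values in the expression table. The liver of 48 male C57BL/6N mice, purchased at 4 weeks of age, was profiled by RNA sequencing. The mice were fed a chow diet (CD, LabDiet 5001, 13.5% fat) or a high-fat diet (HFD, Research Diets D12492, 60% fat), and 4 mice per diet were taken at each of weeks 4, 8, 12, 16, 20 and 24. Islets of the same mice were profiled too, which gave 48 liver and 48 islet libraries. Mice are named by diet and number as in the sample labels, for example CD101. Each mouse was measured once, so that weeks compare different mice, and week on diet and age cannot be told apart.

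In the acute phase reaction, infection or injury leads macrophages to release interleukin 6, interleukin 1 and tumor necrosis factor, and hepatocytes answer with a large output of defence proteins into blood. Interleukin 6 acts through gp130 and STAT3, interleukin 1 through NF-kB, and both converge on C/EBP factors at the promoters of these genes. Saa1 and Saa2 encode lipid-binding proteins that travel on high-density lipoprotein, whereas mouse Saa3 is also made by macrophages and adipocytes, and Saa4 is regarded as constitutive. The orosomucoids are plasma glycoproteins that bind drugs and lipids, haptoglobin captures free hemoglobin, lipocalin 2 binds iron-loaded bacterial siderophores, and serum amyloid P is the pentraxin that responds in the mouse.

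The values are FPKM (fragments mapped to a gene, scaled by transcript length and by the mapped total), a level per length. Read counts are not part of it, so that the depth of a value is unknown. In liver the FPKM of all genes summed to at most 672369 per library, and between 9347 and 10570 genes reached 1 FPKM. The median Spearman correlation of a liver library with the others of its group was between 0.977 and 0.985. All 10 hepatocyte markers examined were tested in liver, and their summed level was between 31814 and 76227 FPKM. Transcripts of the beta cell were present in some liver libraries: Ins2, encoding insulin, reached 1 FPKM in 27 of 48 and was at 0 in 20. The highest levels were 2467 FPKM in CD306 and 1738 FPKM in CD407, which is 0.499% and 0.351% of the median in islets. At week 8 Ins2 was at 14.9 to 20.0 FPKM in 3 of 4 CD livers and at 0 in CD208 and in all 4 HFD livers, and at week 12 it was seen in CD304 and CD306 and at most at 0.65 FPKM in HFD livers. All 4 CD livers and 2 of 4 HFD livers of week 16 held it. It was in none of the 8 livers of week 20 and in all 8 of weeks 4 and 24. Results of weeks 8, 12 and 16 are therefore also given with these libraries set apart. Other pancreatic transcripts were present too: the highest liver level was 1074 FPKM for Ins1 and 153 FPKM for Iapp. Markers of acinar cells of the pancreas summed to 84.7 FPKM in CD306, 31.75 in CD407 and 17.6 in CD304. The sum was 53.3 FPKM in HFD616, where Ins2 was at 8.8 FPKM, and its median over the 48 livers was 0.315 FPKM. Whether the levels of other genes in these libraries were affected was not tested.

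The Saa genes lie together on chromosome 7 of GRCm38 and the Orm genes on chromosome 4. In the authors' gene models, Saa1 spans chr7:46740497-46754264 on the minus strand and Saa2 spans chr7:46686087-46754314 on the plus strand, so that they overlap, and the model of Saa2 also spans Saa3 (chr7:46711998-46715676) and Saa4 (chr7:46727998-46732543), both on the minus strand. The model of Orm1 (chr4:63343382-63365877) spans Orm3 (chr4:63355280-63359511) and Orm2 (chr4:63362449-63365877), all on the plus strand. The RefSeq genes are shorter, with Saa1 at chr7:46740497-46743181, Saa2 at chr7:46751833-46754313 and Orm1 at chr4:63344556-63348163. Hp lies at chr8:109575128-109579172, Lcn2 at chr2:32384637-32387739 and Apcs at chr1:172893961-172895054, each on the minus strand. The main GENCODE transcripts of Saa1 and Saa2 are identical over 94.0% of their alignment, and Saa1 and Saa3 over 65.7%. Orm1 and Orm2 are identical over 91.0%, Orm2 and Orm3 over 88.4% and Orm1 and Orm3 over 86.6%. Reads of such copies can be shared in counting, and whether strand was used is not given in the sources used here, so the split between Saa1 and Saa2 and among the Orm genes is uncertain.

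The promoters of the Saa and Orm pairs that moved together, and of Saa3 and Lcn2, which differed by diet, are shown because their shared letters can be read side by side. Each sequence is the 250 bases before the transcript start given by the RefSeq promoter table, 5′ to 3′ on the gene's strand, in GRCm38.p6, and capitals mark matches to the C/EBP-type motif TTNNGNAA on either strand. The windows are chr7:46742981-46743230 (minus) for Saa1, chr7:46751583-46751832 (plus) for Saa2, chr7:46715677-46715926 (minus) for Saa3, chr4:63362199-63362448 (plus) for Orm2, chr4:63355908-63356157 (plus) for Orm3 and chr2:32387740-32387989 (minus) for Lcn2. For Saa1, Saa3 and Orm3 the RefSeq gene starts upstream of the transcript start used here, at chr7:46743181, chr7:46719615 and chr4:63356069. Their windows thus lie partly, or for Saa3 wholly, inside the gene.
Saa1: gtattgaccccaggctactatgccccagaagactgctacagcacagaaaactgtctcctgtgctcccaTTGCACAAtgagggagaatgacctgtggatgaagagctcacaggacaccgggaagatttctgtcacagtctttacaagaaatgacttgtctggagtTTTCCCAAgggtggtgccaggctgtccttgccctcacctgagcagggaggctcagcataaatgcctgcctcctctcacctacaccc
Saa2: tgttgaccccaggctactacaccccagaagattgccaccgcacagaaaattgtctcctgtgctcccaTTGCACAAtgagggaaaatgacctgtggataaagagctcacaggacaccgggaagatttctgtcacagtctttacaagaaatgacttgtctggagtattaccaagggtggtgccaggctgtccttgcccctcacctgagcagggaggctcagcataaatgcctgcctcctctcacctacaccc
Saa3: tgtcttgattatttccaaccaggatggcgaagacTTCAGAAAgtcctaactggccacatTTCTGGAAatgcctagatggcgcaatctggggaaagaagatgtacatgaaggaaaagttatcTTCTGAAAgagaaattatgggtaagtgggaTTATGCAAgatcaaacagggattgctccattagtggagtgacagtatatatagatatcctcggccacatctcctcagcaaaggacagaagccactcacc
Orm2: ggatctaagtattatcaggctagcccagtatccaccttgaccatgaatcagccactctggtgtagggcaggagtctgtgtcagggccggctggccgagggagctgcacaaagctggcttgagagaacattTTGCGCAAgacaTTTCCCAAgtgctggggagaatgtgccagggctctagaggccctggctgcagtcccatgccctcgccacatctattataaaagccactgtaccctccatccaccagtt
Orm3: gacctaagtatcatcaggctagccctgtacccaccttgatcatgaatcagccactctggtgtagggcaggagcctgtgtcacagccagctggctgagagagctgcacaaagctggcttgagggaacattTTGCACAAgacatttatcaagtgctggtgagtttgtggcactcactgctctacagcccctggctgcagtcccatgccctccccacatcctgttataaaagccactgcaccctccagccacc
Lcn2: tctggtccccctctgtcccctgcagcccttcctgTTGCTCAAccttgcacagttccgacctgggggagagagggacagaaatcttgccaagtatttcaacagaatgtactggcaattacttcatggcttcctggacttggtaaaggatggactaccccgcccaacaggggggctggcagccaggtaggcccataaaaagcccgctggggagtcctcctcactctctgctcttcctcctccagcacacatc

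Of the 10 genes, 8 have an entry in the RefSeq promoter table, and Orm1 and Hp have none. The windows of Saa1 and Saa2 are identical over 94.8% of their alignment, and those of Orm2 and Orm3 over 85.9%. The octamer TTGCACAA stands 182 bases before the start in Saa1, 183 in Saa2 and 121 in Orm3, and Orm2 has TTGCGCAA at 120. The C/EBP-type motif was found in 7 of the 8 windows, all but that of Apcs, and in 36.8% of 32851 mouse promoter windows of the same length. The STAT-type motif TTCNNNGAA was found in Apcs alone (7.02% of all windows), and the NF-kB consensus in 0 of 8 (3.90% of all windows). These are matches of letters in a short window and do not show that a factor binds.

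The liver levels of the 10 genes spread widely between mice (plot of FPKM by mouse). By the median of the 48 livers, Hp was highest at 4135 FPKM, followed by Orm1 (1261), Saa1 (919), Saa2 (341), Saa4 (207.2), Lcn2 (135), Apcs (115), Orm2 (109), Saa3 (17.1) and Orm3 (9.06). The ranges of every pair of neighbours in this order overlapped. Hp ranked 23rd of 20155 genes by this median, and Orm1 56th. Together the 10 genes took between 0.448% (CD208) and 12.4% (CD601) of the FPKM of a library, with a median of 1.24%.

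**Figure D1:**
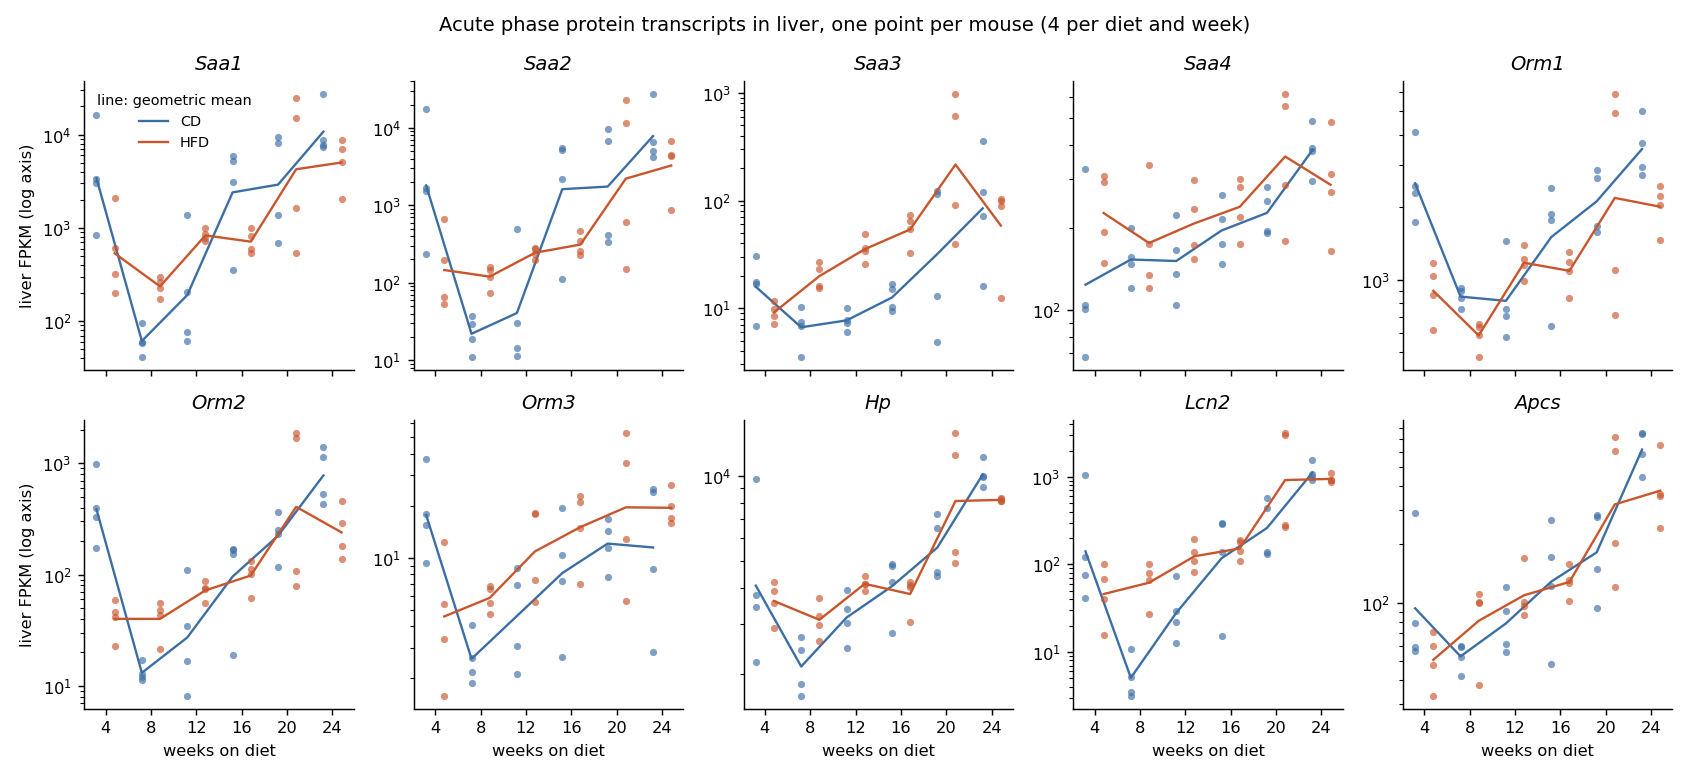
Liver FPKM (log axis) of the 10 genes against weeks on diet, with 1 point for each mouse, 4 per diet and week, and lines through the geometric means of CD (blue) and HFD (orange). For Saa1, Saa2, Orm2 and Lcn2 the 4 CD livers of week 8 lie below all 4 HFD livers of that week, and at week 20 2 mice of each diet lie far above the other 2 for Saa1 and Saa2.

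Saa2 went from 11.1 FPKM in CD205 to 27285 in CD601, a 2456-fold range. Saa1 went from 41.7 to 27112 FPKM in the same 2 mice, a 650-fold range. Lcn2 went from 3.17 FPKM in CD205 to 3158 in HFD518, a 996-fold range. Saa4, which is regarded as constitutive, had a narrower range of 9.06-fold and Hp of 8.43-fold. Once group means were taken out, the residual SD of log2(FPKM + 1) was 1.94 for Saa2, 1.46 for Saa1 (percentile 99.9 of the 10879 genes tested), 1.20 for Lcn2, 1.18 for Saa3 and 1.103 for Orm2. The residual SD of each of the 10 genes lay at or above the percentile 93.8 of all tested genes, where Hp stood.

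The first question was how these genes differed between weeks in each diet. In limma's F-test over the 6 CD groups, 10 of 10 genes differed between weeks, beside 55% of all genes tested, and in the HFD groups 9 of 10, beside 50.2%. Saa4 was the exception on HFD (limma adjusted p = 0.17).

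In CD livers the geometric mean was lowest at week 8 and highest at week 24 for Saa1, Saa2, Saa3, Orm2, Hp, Lcn2 and Apcs. Saa1 rose from 61.3 to 10737 FPKM between these weeks, 172-fold on the log2(FPKM + 1) scale (limma adjusted p of the F-test 2.96e-06). Lcn2 rose from 5.08 to 1119 FPKM, 184-fold (limma adjusted p = 4.36e-07), and Saa2 342-fold (limma adjusted p = 1.41e-05). Orm2 rose 55.3-fold, Apcs 11.5-fold, Saa3 11.2-fold and Hp 4.76-fold. The difference held in each mouse for Saa1: the 4 CD livers of week 8 had 41.7, 58.7, 59.6 and 96.6 FPKM, and those of week 24 had 7289, 7734, 8693 and 27112 FPKM. The lowest week 24 value was thus above every week 8 value. Orm1 was lowest at week 12 and Saa4 at week 4, and Orm3 was highest at week 4.

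In HFD livers the change between the lowest and highest week was smaller for all genes but Saa3. Saa1 went from 236 FPKM at week 8 to 5021 at week 24, 21.2-fold, and Lcn2 from 45.9 at week 4 to 949 at week 24, 20.2-fold. Saa3 went from 9.11 FPKM at week 4 to 216 at week 20, 21.5-fold (limma adjusted p of the F-test 0.00103). The sizes of these ranges were not tested against those in CD livers.

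The effect of diet was then compared week by week, as HFD minus CD in 4 against 4 livers, and a gene passed at an adjusted p under 0.05. Scaling libraries by their median ratio moved the median difference of all genes from 0.11 to -0.03 at week 12, from 0.09 to -0.04 at week 16 and from 0.09 to -0.02 at week 4, and left each count of passed genes within 1.5 times. At week 4, 0 of 10 genes passed, where 0.0506% of all genes did, and 5 had an unadjusted p under 0.05, as did 1271 of all 9875 genes. The lowest p belonged to Orm2, with 172, 328, 395 and 991 FPKM in CD and 22.6, 41.1, 45.9 and 59.2 FPKM in HFD livers, and Orm1, with 1741, 2285, 2440 and 4105 FPKM in CD and 623, 865, 1036 and 1179 FPKM in HFD livers. For both genes every HFD liver lay below every CD liver. The log2 differences were -3.24 ± 0.49 (SE, n = 4 per diet, limma adjusted p = 0.0524) for Orm2 and -1.48 ± 0.28 (limma adjusted p = 0.0837) for Orm1. Saa1 was at 829 to 16209 FPKM in CD and 199 to 2105 FPKM in HFD livers, with overlap. CD101 was the highest of the 8 livers for each of the 10 genes. Without CD101, Orm2 passed (log2 difference -2.79, limma adjusted p = 0.0261), and it also passed in the fit of all 12 groups (limma adjusted p = 0.0304).

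At week 8 most of these genes were higher in HFD livers. Of the 10 genes, 6 were higher and 1 lower in HFD livers, beside 7.49% of all genes tested, and the median log2 difference was 1.19, against 0.04 over all genes. Lcn2 had 3.17, 3.51, 5.2 and 10.7 FPKM in CD and 27.4, 66.1, 79.7 and 100.5 FPKM in HFD livers. All HFD livers lay above all CD livers, by a log2 difference of 3.37 ± 0.46 (SE, limma adjusted p = 0.00674).

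Saa1 had 41.7, 58.7, 59.6 and 96.6 FPKM in CD and 172, 226, 266 and 300.2 FPKM in HFD livers of week 8. Saa2 had 11.1, 18.9, 29.4 and 36.7 FPKM in CD and 74.5, 118.2, 146 and 161 FPKM in HFD livers. For both, the groups did not overlap, and the log2 differences were 1.93 ± 0.26 (limma adjusted p = 0.00554) and 2.40 ± 0.38 (limma adjusted p = 0.00993). Saa3 (log2 difference 1.45 ± 0.28, limma adjusted p = 0.0213), Orm2 (1.54 ± 0.28, limma adjusted p = 0.0146) and Orm3 (0.93 ± 0.18, limma adjusted p = 0.0181) were also higher without overlap.

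Orm1 was the gene that fell. It had 754, 841, 898 and 927 FPKM in CD and 481, 592, 640 and 659 FPKM in HFD livers of week 8, with a log2 difference of -0.53 ± 0.12 (limma adjusted p = 0.0298). Orm1 therefore went against its neighbour Orm2 in the same livers, where Orm2 had 11.2, 12.1, 12.8 and 16.9 FPKM in CD and 21.4, 43.4, 48.5 and 56.1 FPKM in HFD. Because these genes share sequence and their models overlap, the split of reads between them is uncertain. Saa4, Hp and Apcs did not pass (log2 differences 0.20, 0.55 and 0.60, limma adjusted p = 0.758, 0.094 and 0.32).

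CD208, the CD liver of week 8 without Ins2, had 59.6 FPKM of Saa1, 18.9 of Saa2, 6.87 of Saa3, 16.9 of Orm2, 4.06 of Orm3 and 3.51 of Lcn2, below every HFD liver of that week for each of these genes. With the presence of Ins2 as a term, which leaves this liver alone to set the CD level, 0 of 10 passed, with log2 differences of 3.80 for Lcn2 (limma adjusted p = 0.0889), 1.97 for Saa1 (0.105), 2.60 for Saa2 (0.134) and 0.44 for Orm3 (0.378). In the fit of all 12 groups, where the large spread of other weeks enters the error, Lcn2 alone passed at week 8 (limma adjusted p = 0.00746), and Saa1 (0.305), Saa2 (0.348), Saa3 (0.356), Orm2 (0.269), Orm3 (0.421) and Orm1 (0.552) did not. Leaving out 1 mouse at a time, Saa1, Saa2 and Lcn2 passed in all 8 fits. Saa3 did not pass without CD208 or HFD213, Orm2 without CD207, HFD211 or HFD212, Orm3 without CD207, HFD211 or HFD213, and Orm1 without CD203, CD205, CD208, HFD211 or HFD212 (limma adjusted p up to 0.0798). Without HFD211, 4 of 10 passed. The share of all genes given for week 8 belongs to the fit of all 8 livers, and the share in these refits is not given here. Orm1 did not pass without the filter on low genes either (limma adjusted p = 0.0503).

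At week 12, 2 of 10 genes were higher in HFD livers and 0 lower, beside 10.6% of all genes. Saa3 had 5.97, 7.35, 7.81 and 10.1 FPKM in CD and 25.8, 33.8, 36.3 and 48.8 FPKM in HFD livers. The log2 difference was 2.06 ± 0.19 (SE, limma adjusted p = 0.00137), without overlap, which ranked 7th by p among 9955 genes. Lcn2 had 12.6, 22.0, 29.0 and 74.0 FPKM in CD and 81.0, 109, 138 and 193 FPKM in HFD livers, also without overlap (log2 difference 2.11 ± 0.52, limma adjusted p = 0.044).

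Saa1 at week 12 had 61.0, 76.1, 204 and 1364 FPKM in CD and 725, 783, 849 and 989 FPKM in HFD livers. The 1 CD liver above all HFD livers was CD304, which also had the highest CD value of Saa2, Orm1, Orm2, Lcn2, Hp and Apcs. Without CD304, 7 of 10 passed, all higher in HFD livers (limma adjusted p between 0.000938 and 0.0226). Their log2 differences were 3.07 for Saa1, 3.75 for Saa2, 2.18 for Saa3, 0.80 for Orm1, 2.04 for Orm2, 0.50 for Hp and 2.57 for Lcn2. The share of all genes given for week 12 belongs to the fit of all livers of that week. The share in the refits is not given here. CD304 was 1 of the 2 CD livers with Ins2, and without both of them the same 7 genes passed. The other was CD306, which had the highest CD value after CD304 for Saa1, Saa2, Orm1, Orm2, Lcn2, Hp and Apcs. That fit keeps only the 2 CD livers lowest for these genes, so it cannot set the presence of Ins2 apart from their level. In 6 of the other 7 leave-outs of a mouse Lcn2 did not pass (limma adjusted p up to 0.133), and in the fit of all 12 groups neither gene did (Saa3 0.0822, Lcn2 0.08).

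At week 16, 1 of 10 genes passed, beside 7.43% of all genes. Saa3 had 9.46, 10.2, 15.1 and 16.8 FPKM in CD and 32.6, 54.3, 64.7 and 73.1 FPKM in HFD livers. Every HFD liver lay above every CD liver (log2 difference 2.02 ± 0.27, limma adjusted p = 0.00346). Saa1 did not pass, with 353, 3130, 5151 and 5851 FPKM in CD and 538, 592, 814 and 990.5 FPKM in HFD livers (log2 difference -1.75 ± 0.89, limma adjusted p = 0.302). The low CD value belonged to CD403, and without it Saa1 (-2.68), Saa2 (-3.66) and Orm1 (-0.87) were lower and Saa3 (1.89) higher in HFD livers (limma adjusted p between 0.00256 and 0.027). The 2 HFD livers with Ins2, HFD411 and HFD414, had 64.7 and 32.6 FPKM of Saa3, above all 4 CD livers, all of which held Ins2, though in the fit of these 2 against the 4 CD livers it did not pass (log2 difference 1.80, limma adjusted p = 0.0941). It did not pass in the fit of all 12 groups either (limma adjusted p = 0.121).

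**Figure D2:**
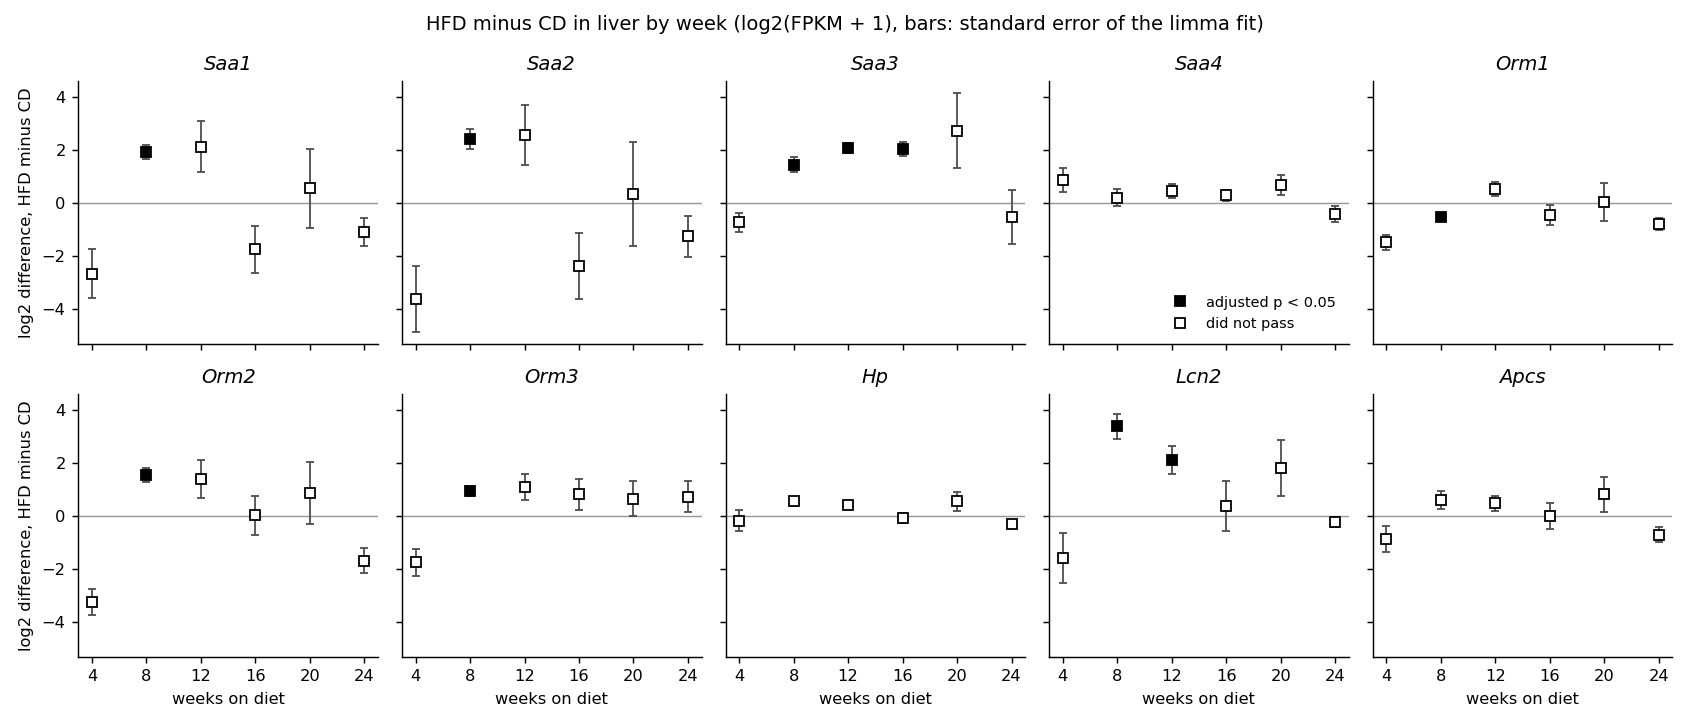
Log2 difference of HFD minus CD livers, on log2(FPKM + 1), at each week for the 10 genes, with bars for the standard error of the limma fit of that week (4 livers per diet). Filled squares passed at an adjusted p under 0.05, which were 7 genes at week 8, Saa3 and Lcn2 at week 12, Saa3 alone at week 16 and none of the 10 in the other weeks.

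At week 20, 0 of 10 genes passed, beside 2.47% of all genes, and 0 of 10 had an unadjusted p under 0.05, against 1562 of all 10184 genes. Both diets held very different livers: Saa1 was at 685, 1375, 8070 and 9371 FPKM in CD and at 533, 1647, 15105 and 24589 FPKM in HFD livers. The high livers were CD505 and CD507 on CD and HFD517 and HFD518 on HFD, and the same 2 of each diet were the highest for Saa2, Saa3, Orm1, Orm2, Hp, Lcn2 and Apcs. Lcn2 was at 132, 140, 437 and 576 FPKM in CD and at 265, 282, 3035 and 3158 FPKM in HFD livers, and Saa3 at 4.88, 13.1, 114.2 and 121 FPKM in CD and at 39.6, 91.4, 605.6 and 974 FPKM in HFD livers. The log2 difference of Saa3 was 2.72 ± 1.42 (SE, limma adjusted p = 0.436), and in the fit of all 12 groups it passed (limma adjusted p = 0.0288).

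At week 24, 0 of 10 genes passed, beside 0.837% of all genes, and 3 had an unadjusted p under 0.05, as did 1587 of all 10152 genes. These 3 were Orm1, Orm2 and Apcs, all lower in HFD livers, and Hp was not among them. Orm2 had a log2 difference of -1.70 ± 0.47 (SE, limma adjusted p = 0.134) and Apcs of -0.70 ± 0.28 (limma adjusted p = 0.267), both with overlap. Hp had 9097, 9892, 9927 and 11576 FPKM in CD and 8098, 8134, 8244 and 8343 FPKM in HFD livers, without overlap (log2 difference -0.30 ± 0.14, limma adjusted p = 0.339). Orm1 had 2727, 2925, 3679 and 5035 FPKM in CD and 1467, 2037, 2220 and 2457 FPKM in HFD livers, without overlap (-0.79 ± 0.23, limma adjusted p = 0.132). Lcn2 was high in all 8 livers, between 867 and 1556 FPKM.

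Across the 6 weeks, the mean log2 difference of HFD minus CD was positive for Saa3 and Lcn2 and negative for Orm1, and these 3 of 10 genes passed, beside 42.6% of all genes. Saa3 was higher by 1.17 ± 0.34 (SE, 24 mice per diet, limma adjusted p = 0.00509), with HFD above CD in 4 of 6 weeks, and Lcn2 by 0.97 ± 0.34 (limma adjusted p = 0.0202), also in 4 of 6 weeks. Orm1 had a mean difference of -0.45 ± 0.17 (limma adjusted p = 0.0302), with HFD above CD in 2 of 6 weeks. The other 7 genes did not pass. Saa1 had -0.15 ± 0.41 (limma adjusted p = 0.795) and Saa2 -0.33 ± 0.55 (0.665), and their weekly differences pointed up in 3 weeks and down in 3. The median over the 10 genes was 0.10, against 0.08 over all genes. None of the 3 calls held with each week left out in turn. Lcn2 did not pass without week 8 (0.49, limma adjusted p = 0.341), without week 12 (0.145) or without week 20 (0.0588). Saa3 did not pass without week 12 (limma adjusted p = 0.0548) or week 16 (0.0503), while its difference stayed between 0.854 and 1.545. Orm1 did not pass without week 4 (-0.24, limma adjusted p = 0.326), 8 (0.0881), 16 (0.0575) or 24 (0.124). Orm1 also failed to pass without HFD511 (0.0513) or HFD516 (0.0525) and with log2(Ins2 + 1) as a covariate (0.0744).

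Whether the diet difference changed between weeks was tested directly. In the F-test over the 6 weekly differences 1 of 10 genes passed, beside 1.46% of all genes: Orm2 (F = 6.18, limma adjusted p = 0.03), whose log2 difference was negative at week 4 (-3.24) and week 24 (-1.70), near 0 at week 16 (0.03), and positive at weeks 8 (1.54), 12 (1.38) and 20 (0.86). Lcn2 did not pass (F = 4.65, limma adjusted p = 0.0811), and 7 of 10 had an unadjusted p under 0.05, as did 1606 of all 10879 genes. The call of Orm2 was lost when any 1 of 6 livers of week 4 was left out (CD101, CD103, CD104, HFD112, HFD113 or HFD114), with limma adjusted p between 0.051 and 0.0737. Without CD304, Saa1 and Lcn2 passed beside Orm2, and Lcn2 passed beside Orm2 without CD403 or without HFD511. Between the mean of weeks 4, 8 and 12 and the mean of weeks 16, 20 and 24, the diet difference changed for 0 of 10 genes in limma, beside 0.175% of all genes, and 0 of 10 had an unadjusted p under 0.05, against 860 of all 10879 genes.

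**Figure D3:**
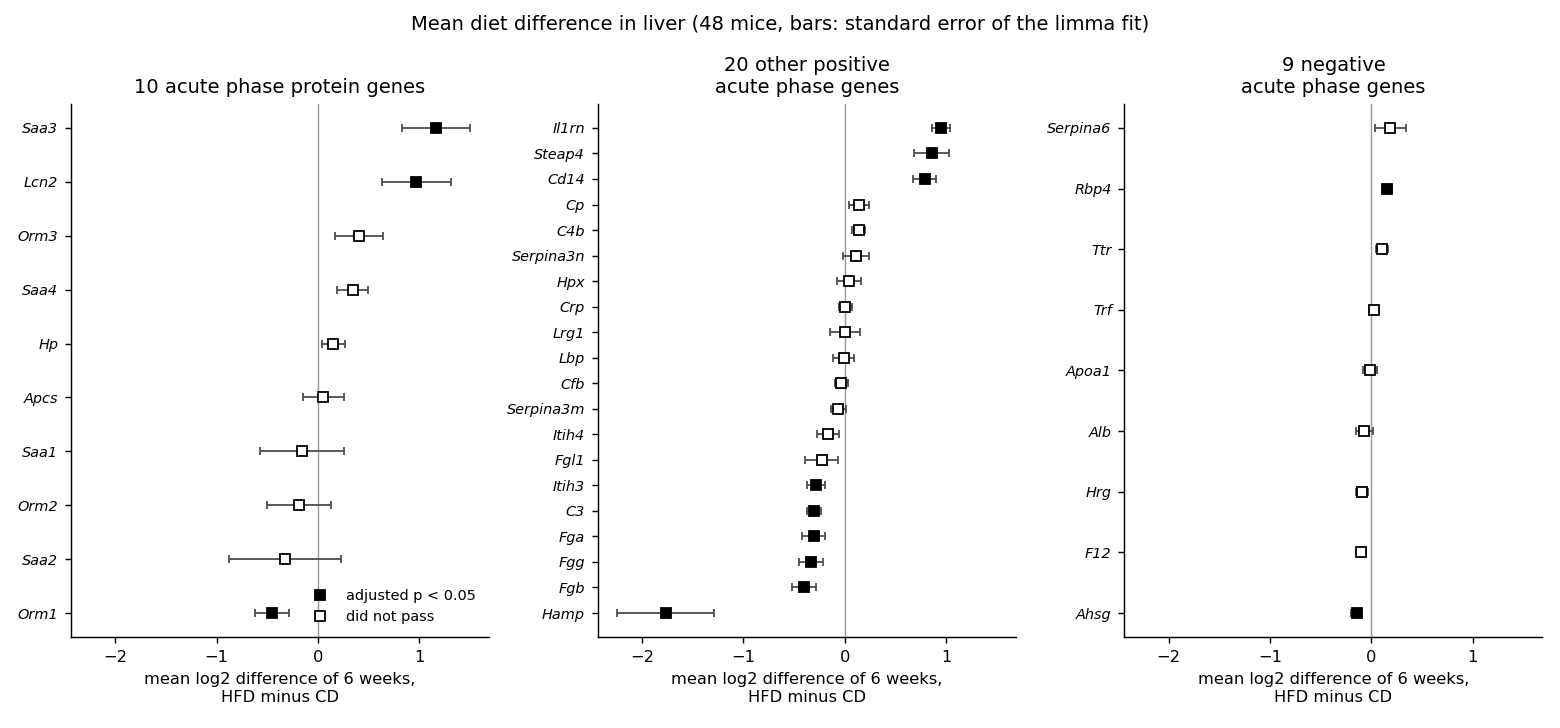
Mean log2 difference of 6 weeks, HFD minus CD, on log2(FPKM + 1) in 48 livers, with bars for the standard error of the limma fit, for the 10 genes, 20 other positive and 9 negative acute phase genes. Filled squares passed at an adjusted p under 0.05: 3 of 10 (Saa3 and Lcn2 higher, Orm1 lower), 9 of 20 (3 higher, 6 lower) and 2 of 9 (1 higher, 1 lower), beside 42.6% of all genes.

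The 10 genes varied together from mouse to mouse. Once the group mean (1 diet at 1 week) was taken out of log2(FPKM + 1), all 45 pairs had a positive Pearson r over the 48 livers, with a median of 0.70 and a range from 0.09 to 0.99, and 41 of 45 passed at an adjusted p under 0.05 (two-sided permutation of mice within groups, adjusted over 45 pairs). Saa1 and Saa2 had r = 0.99 and rho = 0.98 (adjusted permutation p = 3e-05 and 3.75e-05), and r = 0.99 without the 2 farthest mice. Saa1 and Lcn2 had r = 0.90 and rho = 0.91 (adjusted permutation p = 3e-05 and 3.75e-05), r = 0.90 without the 2 farthest mice, 0.91 within CD and 0.89 within HFD mice. The raw p of these pairs, 1e-05, was the smallest that the permutations can give. Without week 20, the r of Saa1 and Lcn2 was 0.87, 36 of 45 pairs passed, and 44 were positive, since Saa3 with Orm3 had r = -0.21. The lowest count of passed pairs was 34, without week 4. Values of 1 library share its depth and scaling, and Saa1 and Saa2 also share sequence.

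The 4 pairs that did not pass each held Saa3 or Saa4. Saa3 and Orm3 had r = 0.09 and rho = 0.11 (adjusted permutation p = 0.682 and 0.517), -0.27 within CD and 0.50 within HFD mice. The other 3 were Saa3 with Saa4 (r = 0.30, rho = 0.32, adjusted permutation p = 0.0949 and 0.0575), Saa4 with Lcn2 (r = 0.40, rho = 0.28, adjusted permutation p = 0.0593 and 0.12) and Saa4 with Apcs (r = 0.26, rho = 0.16, adjusted permutation p = 0.222 and 0.385). Without the 2 mice farthest from the median of the first gene, these r were 0.00 for Saa3 with Orm3, 0.25, 0.20 and 0.07. Saa1 and Saa3 had r = 0.67 and rho = 0.71 (adjusted permutation p = 0.000162 and 5.29e-05), 0.65 without the 2 farthest mice, 0.55 within CD and 0.85 within HFD mice.

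**Figure D4:**
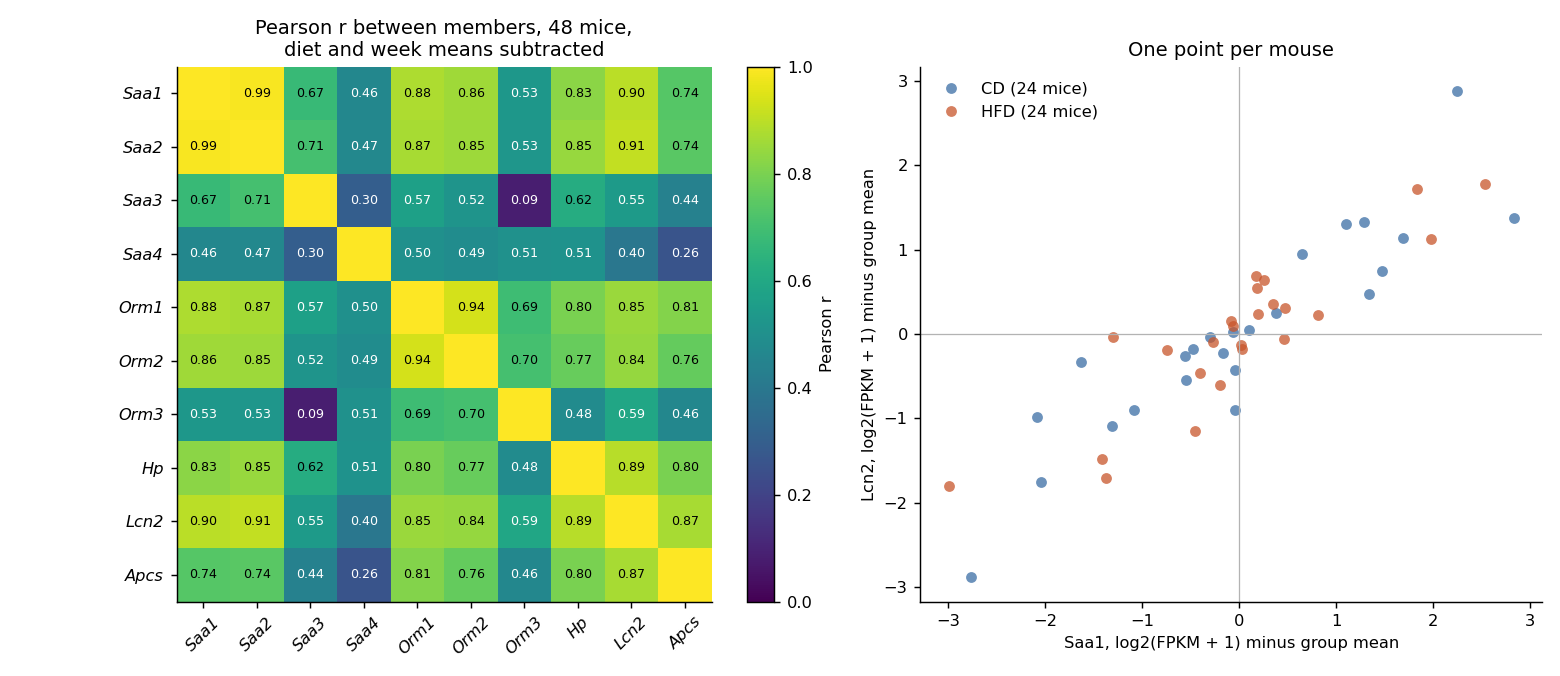
Left, Pearson r between the 10 genes over 48 livers once group means of log2(FPKM + 1) were taken out, from 0.09 (Saa3 with Orm3) to 0.99 (Saa1 with Saa2). Right, Saa1 against Lcn2 on the same centred log2 scale, with 1 point for each of 24 CD (blue) and 24 HFD (orange) mice, which follow 1 rising line (r = 0.90).

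Among all 10879 genes tested, the genes most like Saa1 in this centred scale over 48 mice were Saa2 (r = 0.99), Lcn2 (0.90), Orm1 (0.88), Orm2 (0.86), Hpx (0.83), Hp (0.83), Prg4 (0.83), Ifitm2 (0.80), Lrg1 (0.80) and Cpb2 (0.78). Hpx encodes the heme carrier hemopexin, Prg4 a lubricating glycoprotein, Ifitm2 an interferon-induced membrane protein and Cpb2 an inhibitor of clot lysis. Those most like Lcn2 were Saa2 (0.91), Saa1 (0.90), Hp (0.89), Apcs (0.87), Serpina3n (0.86), Lrg1 (0.85), Orm1 (0.85), Orm2 (0.84), Fgl1 (0.83) and Prg4 (0.82). Thus 5 of the 10 nearest genes of Saa1 and 6 of the 10 of Lcn2 were among the genes studied here, while Apcs came at rank 18 for Saa1, Saa3 at rank 33, Orm3 at rank 78 and Saa4 at rank 125.

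The other positive acute phase genes, a list of 20 that includes fibrinogens, complement factors and inhibitors, were all tested. Over the 6 weeks 3 were higher and 6 lower in HFD livers (median log2 difference -0.02, against 0.08 over all genes), 9 of 20 beside 42.6% of all genes. Il1rn, the interleukin 1 receptor antagonist, was higher by 0.95 ± 0.09 (SE, 24 mice per diet, limma adjusted p = 1.38e-10), Cd14, a coreceptor for endotoxin, by 0.79 ± 0.11 (4.8e-07) and the metalloreductase gene Steap4 by 0.86 ± 0.17 (0.00012). Of the 6 that were lower, C3, the central complement factor, had -0.30 ± 0.07 (0.000711), the fibrinogen chain gene Fgb -0.40 ± 0.12 (0.00679) and Hamp, encoding the iron hormone hepcidin, -1.77 ± 0.48 (0.00323). Taken by week, 0 of 19 tested passed at week 4 (3 at an unadjusted p under 0.05), 5 of 20 passed at week 8 (7.49% of all genes), 3 at week 12 (10.6%), 4 of 20 in week 16 (7.43%), 1 in week 20 (2.47%) and 1 in week 24 (0.837%). Their r with Saa1 had a median of 0.59, from 0.12 for Hamp to 0.83 for Hpx.

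Of 9 negative acute phase genes, which fall in the reaction, 2 passed over the 6 weeks, beside 42.6% of all genes, and 7 did not. Rbp4, the retinol carrier, was higher (0.16 ± 0.04, limma adjusted p = 0.00457) and Ahsg, encoding fetuin A, lower (-0.14 ± 0.05, limma adjusted p = 0.0271) in HFD livers. Albumin (Alb) had -0.07 ± 0.08 (limma adjusted p = 0.516). Across mice the r of this list with Saa1 had a median of -0.12, from -0.67 for Alb to 0.18 for Hrg. Rbp4 had -0.62 and Trf 0.15. FPKM values of a library share a total, of which Saa1 and Saa2 took up to 8.94% (CD601) and Alb between 2.84% and 7.90%.

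Of 24 genes of cytokine signaling in the acute phase, 22 were tested and 9 were higher and 1 lower in HFD livers over the 6 weeks, 10 of 22 beside 42.6% of all genes. Nfkb1, a subunit of NF-kB, was higher by 0.26 ± 0.04 (limma adjusted p = 5.28e-06), the gp130 gene Il6st by 0.26 ± 0.06 (0.000557), and Osmr, encoding the oncostatin M receptor, by 0.26 ± 0.05 (0.000161). The receptor gene Lifr was lower by a log2 difference of -0.69 ± 0.13 (3.61e-05). Il6 and Tnf did not reach 1 FPKM in 4 livers and were not tested. The r of the list with Saa1 had a median of 0.09, from -0.26 for Il6ra to 0.48 for Tnfrsf1a. Stat3 had 0.41, Socs3 0.42, Cebpb 0.10 and Nfkb1 -0.09. Of 7 receptors and partners, 4 were tested and 3 passed over the 6 weeks, beside 42.6% of all genes. Tlr2, a receptor for bacterial lipoproteins and serum amyloid A (0.74 ± 0.08, limma adjusted p = 4.17e-09), and Hmox1, which breaks down heme (0.68 ± 0.12, 1.24e-05), were higher in HFD livers. The haptoglobin-hemoglobin receptor gene Cd163 was lower (-0.27 ± 0.08, 0.00816) in HFD livers. The differences of Cd163 and Lifr changed between weeks (limma adjusted p of the F-test 0.00156 and 0.00924). Cd163 had 0.56 at week 4 and -1.41 at week 24, and Lifr had 1.00 at week 4 and -1.54 at week 8.

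Macrophage and neutrophil markers were compared in the same contrasts. In this bulk tissue, a change in the number of cells of a type and a change in RNA per cell cannot be told apart. All of 12 macrophage markers were above 0 in every liver. Over the 6 weeks 9 of these 12 were higher in HFD livers and 0 lower, beside 42.6% of all genes (median log2 difference 0.52, against 0.08 over all genes). Their summed level was 96 to 311 FPKM in CD and 113.01 to 512 FPKM in HFD livers. At week 8, where most of the genes studied here were higher, the sums were 102.9 to 194 FPKM in CD and 113.01 to 198 FPKM in HFD livers. In limma 0 of 11 tested markers passed at that week, beside 7.49% of all genes, and 0 had an unadjusted p under 0.05. At weeks 12, 16 and 20, 4, 2 and 6 of 12 were higher in HFD livers, beside 10.6%, 7.43% and 2.47% of all genes. The markers' r with Saa1 had a median of 0.08 and a highest value of 0.20.

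Of 12 neutrophil markers 4 were tested and 2 were higher in HFD livers over the 6 weeks, beside 42.6% of all genes. These were S100a9 (0.40 ± 0.16, limma adjusted p = 0.0351) and Csf3r (0.18 ± 0.06, limma adjusted p = 0.0144). The 12 markers summed to 1.52 to 19.9 FPKM in CD and 2.42 to 34.2 FPKM in HFD livers, against medians of 135 FPKM for Lcn2 and 17.1 FPKM for Saa3. At week 12, where Saa3 and Lcn2 passed, S100a8 (0.78 ± 0.19, limma adjusted p = 0.0314) and S100a9 (0.79 ± 0.21, limma adjusted p = 0.0453) were higher in HFD livers as well, beside 10.6% of all genes. The r of the 4 tested markers with Saa1 had a median of 0.41, from 0.27 for Csf3r to 0.54 for S100a9. The granule enzyme gene Mpo and the surface antigen gene Ly6g were at 0 in 19 of 48 livers each, with a highest level of 0.18 FPKM. Of 6 adipocyte markers, Lep was at 0 in all 48 livers, Plin1 in 42 and Adipoq in 33. The 2 that were tested were both higher in HFD livers over the 6 weeks, beside 42.6% of all genes. Cfd, encoding the complement protease adipsin, was higher by 2.26 ± 0.20 (limma adjusted p = 6.22e-11, higher in 6 of 6 weeks) and the adrenergic receptor gene Adrb3 by 0.34 ± 0.09 (limma adjusted p = 0.00322). The summed level of the list was 1.27 to 8.03 FPKM in CD and 2.91 to 30.7 FPKM in HFD livers, and the r of Cfd and Adrb3 with Saa1 was 0.01 and 0.03. The part of macrophages, neutrophils and adipocytes in the levels of Saa3 and Lcn2 was not tested.

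In islets the 10 genes were near 0. The median of the 48 islet libraries was at most 0.30 FPKM, reached by Lcn2, and 0.06 FPKM for Saa1. Saa3 and Hp alone reached 1 FPKM in at least 4 islet libraries, and 0 of these 2 passed for the mean diet difference over the 6 weeks, beside 38.6% of all islet genes, with unadjusted p above 0.05 for both. Saa3 had a log2 difference of 0.05 ± 0.17 (SE, 24 mice per diet, limma adjusted p = 0.845) and Hp of 0.26 ± 0.17 (limma adjusted p = 0.222). The islet library of HFD617 had 18.7 FPKM of Saa1, 21.5 of Saa2, 9.98 of Hp and 3.92 of Orm1, the highest of all islet libraries, with 14.5 FPKM of Alb, whose islet range was 0.12 to 48.8 FPKM. In the liver of this mouse Saa1 was at 5102 FPKM. Between islet and liver of the same mouse, after group means were subtracted, Saa3 had r = -0.11 and rho = -0.21 (48 mice, permutation p = 0.397 and 0.142, adjusted permutation p of r over 2 genes 0.795) and Hp r = -0.01 and rho = -0.05 (permutation p = 0.813 and 0.698, adjusted 0.813). Without the 2 farthest mice these r were -0.16 and -0.01.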

How the data were processed

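Poly(A) RNA of liver and islets was sequenced on the BGISEQ-500 platform. The authors deposited 1 table of FPKM values for 96 libraries. The submitters' processing notes name GRCm38.p5, HISAT2 2.0.4, Bowtie2 2.2.5, RSEM 1.1.12 and DESeq2, without their roles. Columns of group averages, fold changes, p-values, q-values and cluster or module membership hold the authors' own results and were not used, and 0 columns belonged to other samples. Genes that reached 1 FPKM in 4 or more libraries of a comparison were tested on log2(FPKM + 1) in limma 3.58.1 (R 4.3.3) with trend and robust variance and Benjamini-Hochberg adjustment, in 4 against 4 livers per week or over all 48 libraries with 1 mean per diet and week. Fold changes of low genes are understated on this scale. Correlations used 1e+05 permutations of mice within groups (numpy 2.4.6, scipy 1.17.1). The fits were tested on simulated data. All 10 genes were tested in every liver comparison and drawn in the plots, but the text of a week does not name each of them. Also named were up to 6 genes of each other list by smallest p for the mean diet difference, and the 10 genes closest to Saa1 and to Lcn2. The genes and lists were chosen with earlier results of these data known. Alternatives were a pseudocount of 0.1, median ratio scaling, no filter, all 12 groups in 1 fit, each week and each mouse left out, and, chosen after seeing the data, fits that set apart libraries with Ins2 and correlations without each week. Mice were separate animals, 4 per group.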

Additional observations from a re-analysis of the deposited data

Results flagged for a closer look

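Dixon's criterion was applied to log2(FPKM + 1) in 120 groups of 4 livers (10 genes in 12 groups). In 5 of these groups 1 mouse lay far from the other 3, which chance alone would meet in about 1 in 20 groups. Saa1 was at 27112 FPKM in CD601 at week 24, where the other CD mice had 7289, 7734 and 8693 FPKM. Saa3 was at 12.5 FPKM in HFD614 at week 24, where the other HFD mice had 88.4, 98.7 and 103.1 FPKM. Orm2 was at 19.0 FPKM in CD403 at week 16, where the other CD mice had 152, 168 and 169 FPKM. Hp was at 3037 FPKM in HFD411 at week 16, where the other HFD mice had 4053, 4109 and 4200.5 FPKM. Apcs was at 37.8 FPKM in HFD217 at week 8, where the other HFD mice had 99.99, 100.6 and 110.5 FPKM.

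The diet difference of Orm2 changed between weeks (limma F = 6.18, adjusted p = 0.03), as given above, and this call was lost when any 1 of 6 of the 8 livers of week 4 was left out.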

How the results depend on the processing

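No paired analysis was possible because CD and HFD mice share no mouse numbers. Of the recomputed counts of passed genes or gene pairs, 397 stayed within 1.5 times, counts that stayed at 0 among them, and 32 did not. Of the recomputed results of single genes, 454 kept their call, 55 no longer passed and 2 passed where they had not before. No diet difference that passed was reversed. Without week 20, the r of Saa3 with Orm3 went from 0.09 to -0.21, and with a pseudocount of 0.1, 1 of 2 islet to liver r was positive (0.05) where neither was before. These r had not passed in the main setting. In 1 fit of all 12 groups, 1 of 10 genes passed in each of weeks 4, 8 and 20, and 0 in weeks 12 and 16. The mean diet difference gave 1 gene without week 8, 1 without week 12 and 1 without week 16. Without a filter, 1 gene passed in islets, Orm3, by -0.02 on the log2 scale. With the presence of Ins2 as a term, 0 genes passed at week 8 and 8 at week 12. Without the 2 CD libraries with Ins2, 7 passed at week 12, and without the 2 HFD libraries at 0 for Ins2, 0 passed at week 16. Leaving out 1 mouse at a time gave 0 to 1 genes at week 4 (1 without CD101), 4 to 8 at week 8 (4 without HFD211), 1 to 7 at week 12 (7 without CD304), 1 to 4 at week 16 (4 without CD403) and 0 to 3 for the change of the diet difference between weeks (3 without CD304). The share of all genes that passed is not given for these refits, so the counts describe the 10 genes alone. The cause of these changes was not tested. The 4 mice per group limit the precision, and depth is unknown.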
